A study of Mus musculus with 18 samples.

Results

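Integrins and the adaptor proteins of focal adhesions were followed through 2 mouse mammary carcinoma lines with an inducible MRTFA construct. The set held 45 genes of the 32286 entries counted, chosen by name: 19 integrin subunits (12 α and 7 β) and 26 adaptors. The adaptors comprised 5 talins and kindlins, 5 genes of the ILK-PINCH-parvin complex, 5 kinases and scaffolds, and 11 linkers to actin. Of the 45 genes, 44 passed the filter on low counts and were tested. The kindlin gene Fermt1 was not, with 0 counts in every E0771 library and at most 0.169 CPM (counts scaled to a common library total) in AT-3.

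The lines, AT-3 and E0771, carried a doxycycline-inducible retroviral vector, pRetroX, that held Y238A MRTFA, wild-type MRTFA or no insert. Y238A is described by the submitters as deficient in binding SRF, and the stated question was the part that MRTFA-SRF binding plays in the stiffness of cancer cells. All cells, those with empty vector included, had received doxycycline at 2 µg/ml for 48 h, so an action of the drug itself is shared by every group. Each of the 6 groups had 3 libraries of mRNA from cell populations, 18 in all. The design note speaks of 3 replicate sets without saying whether they were separate cultures, so p-values measure only the spread between these libraries, which may be technical, and construct and culture cannot be told apart.

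Integrins are αβ heterodimers that bind extracellular matrix outside the cell and, through talin and kindlin, actin filaments inside it. Vinculin, α-actinin, filamin, zyxin and tensin strengthen that link at focal adhesions, while FAK, PYK2, p130Cas and paxillin relay signals from it. MRTFA is a coactivator held in the cytoplasm by monomeric actin; when actin polymerises it enters the nucleus and works with the transcription factor SRF on CArG boxes, and vinculin is a well-known gene of this class.

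Library totals lay between 81265466 and 115260128 counts; whether both mates of a read pair were counted is not given in the sources used here, so the number of fragments behind them is not known. The construct's transcript averaged 2104 ± 195 CPM in AT-3 with Y238A and 5434 ± 1444 CPM in AT-3 with wild type, against 0.0160 CPM with empty vector; in E0771 it averaged 319.6 ± 37.4 and 761 ± 91.1 CPM, against 0.0736 CPM (SD, n = 3). The mutant was therefore present at a lower level than the wild type in both lines, and in AT-3 at a higher level than in E0771. Some libraries held transcripts of another group: over 240 genes near absent from E0771, the median level was 1.35% of AT-3's in E0771 empty vector replicate 2, 0.508% in wild-type replicate 2 and 0.269% in Y238A replicate 1, and at most 0.0616% in the other E0771 libraries. AT-3 Y238A replicate 1 held 1.13% of the wild-type level of 13 genes that wild type switched on, against 0.259% and 0.110% in replicates 2 and 3. Whether the mutant itself induced these genes weakly was not tested. Without the 4 libraries of highest carry-over every count of members called below differed by at most 4. The counts that moved by over 1.5 times are given where they occur.

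Epithelial markers were low in AT-3, a line labelled as mammary carcinoma: 8 of them summed to 66.3 to 78.6 CPM with Y238A, 44.8 to 48.4 CPM with wild type and 5.84 to 6.29 CPM with empty vector, most of it Krt19, with Cldn4 at 0 with empty vector. In E0771 they summed to 376 to 399.6 CPM with Y238A, 569 to 680.3 CPM with wild type and 304 to 328 CPM with empty vector, nearly all Krt8. Fibroblast markers (7 genes, mostly Pdgfra and Pdgfrb) summed in AT-3 to 376 to 421, 88.4 to 103 and 499 to 542 CPM, and in E0771 to 64.5 to 93.7, 52.6 to 64.0 and 85.1 to 102 CPM with Y238A, wild type and empty vector. Leukocyte and macrophage markers (7 genes, mostly Cd68 and Lyz2) reached with the same constructs 77.0, 24.9 and 6.05 CPM at most in AT-3 and 19.9, 6.69 and 9.66 CPM in E0771, and Ptprc stayed at a mean of at most 0.159 CPM in every group. Endothelial markers (6 genes), again with Y238A, wild type and empty vector, reached 3.35, 16.4 and 2.83 CPM in AT-3 and 3.20, 10.1 and 2.45 CPM in E0771. These levels differed between the constructs, and their part in the results was not tested; in bulk samples fewer cells of a type and less RNA per cell cannot be told apart.

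The promoter of each gene was searched for the CArG box, the DNA element that SRF binds, in the 250 bases before the start of transcription. The consensus was read on both strands, which are equivalent because the motif is palindromic. RefSeq windows on GRCm38.p6 were available for 34 members, and 3 held a match (8.82%): Vcl, Fermt2 and Itgb6. Of all 27025 genes with a window, 439 held one (1.62%). The windows of Vcl, which encodes the actin linker vinculin, and Fermt2, which encodes kindlin-2, are shown because both genes rose with wild-type MRTFA in both lines. Itga5, which encodes the α subunit of the fibronectin receptor, is shown beside them as the integrin with the smallest adjusted p, and its window held no match. The match, in capitals, ran from 227 to 218 bases before the RefSeq start in Vcl and from 204 to 195 in Fermt2. In GENCODE M21 Fermt2 begins at chr14:45530118, inside its printed window, so there the match lies nearer the start. The windows were chr14:20929148-20929397 on the plus strand for Vcl, chr14:45530066-45530315 on the minus strand for Fermt2 and chr15:103366792-103367041 on the minus strand for Itga5.
Vcl: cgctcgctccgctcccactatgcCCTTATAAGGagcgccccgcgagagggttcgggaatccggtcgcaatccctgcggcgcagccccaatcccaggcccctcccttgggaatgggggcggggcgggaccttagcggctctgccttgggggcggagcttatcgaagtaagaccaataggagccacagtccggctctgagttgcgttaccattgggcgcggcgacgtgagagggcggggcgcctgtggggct
Fermt2: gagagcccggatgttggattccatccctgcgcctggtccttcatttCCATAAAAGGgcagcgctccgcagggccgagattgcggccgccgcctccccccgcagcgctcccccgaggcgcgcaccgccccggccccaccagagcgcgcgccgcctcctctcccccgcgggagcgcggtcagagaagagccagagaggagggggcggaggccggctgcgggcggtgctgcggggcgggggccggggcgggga
Itga5: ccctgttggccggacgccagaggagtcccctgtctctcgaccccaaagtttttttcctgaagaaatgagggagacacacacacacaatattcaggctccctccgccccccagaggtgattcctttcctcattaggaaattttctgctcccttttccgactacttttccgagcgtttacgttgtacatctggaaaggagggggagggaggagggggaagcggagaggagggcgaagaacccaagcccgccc
A match describes the letters of the window only, and its absence says nothing about binding elsewhere.

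With empty vector the members ranged widely in level. Levels between genes are compared here per kilobase of exon. Flna, encoding the actin crosslinker filamin A, stood at 362 ± 3.23 CPM per kb in AT-3 and 323 ± 5.25 in E0771, and Itgb1, the β subunit shared by most matrix receptors, at 317 ± 7.64 and 195 ± 8.19 (SD, n = 3). Zyx (zyxin), Actn1 and Actn4 (α-actinins) also lay at 83.5 CPM per kb or above in both lines. At the other end Itga4, Itgb6 and Fermt1 averaged at most 0.0128 CPM per kb in both.

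**Figure D1:**
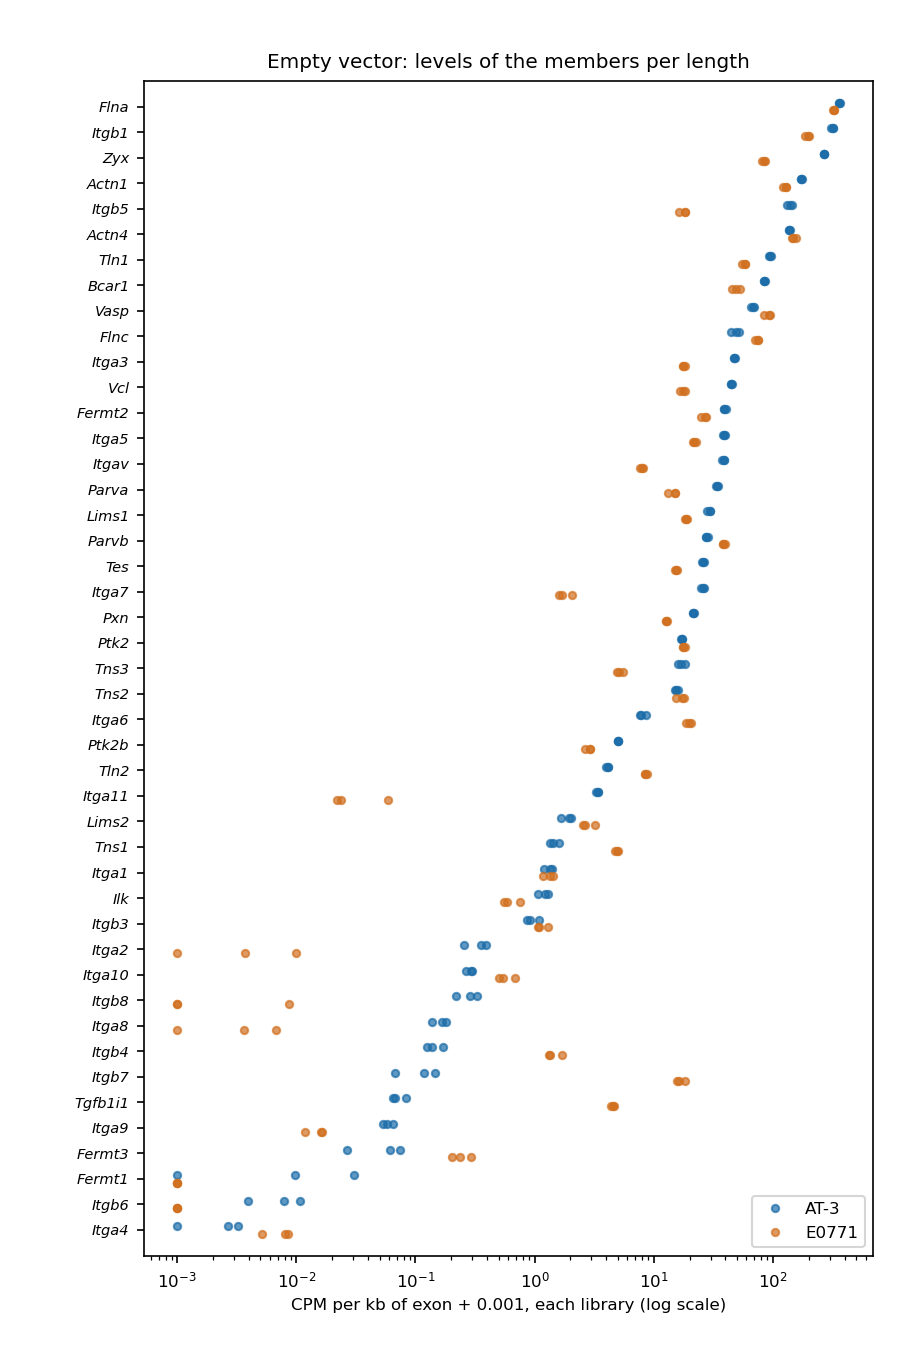
Level of each of the 45 members in the 3 empty vector libraries of each line, as CPM per kb of exon plus 0.001 on a log axis (AT-3 blue, E0771 orange), ordered by the AT-3 mean. Flna and Itgb1 lie highest in both lines, and the lines lie far apart for Itgb7, Tgfb1i1, Itga11, Itga2, Itgb8 and Itga8.

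AT-3 and E0771 differed in most members with empty vector alone. In AT-3 against E0771, both with empty vector, 25 members were higher and 13 lower by edgeR's quasi-likelihood test with Benjamini-Hochberg adjustment, and 6 did not pass (adjusted p under 0.05); over all 17841 genes 36.8% were higher and 35.2% lower. The median log2 difference was 0.67 for the members and 0.01 for all genes. Integrins accounted for the widest gaps. Itga11, a collagen receptor subunit, measured 16.7, 17.6 and 17.3 CPM in AT-3, against 0.115, 0.295 and 0.108 CPM in E0771. Itgb8, a subunit that activates latent TGFβ, measured 2.43, 3.62 and 3.14 CPM in AT-3, against 0, 0.0842 and 0 CPM in E0771. Itga2, another collagen receptor subunit, measured 2.80, 2.53 and 1.83 CPM in AT-3, against 0, 0.0632 and 0.0196 CPM in E0771. The libraries of the lines did not overlap for any of these genes, which were picked for the highest log2 differences among called members. The highest E0771 value of each came from replicate 2, the library with the carry-over noted above. Itga8, whose product pairs with β1, measured 1.23, 1.01 and 1.31 CPM in AT-3, against 0.0192, 0.0421 and 0 CPM in E0771 (adjusted p = 3.09e-07).

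Other members were higher in E0771. Itgb7, the β subunit of lymphocyte homing receptors, measured 0.185, 0.400 and 0.322 CPM in AT-3, against 50.7, 45.4 and 43.3 CPM in E0771, a log2 difference of -7.25 ± 0.44 (SE; adjusted p = 2.44e-09, edgeR's quasi-likelihood test). Tgfb1i1, which encodes the paxillin relative Hic-5, measured 0.463, 0.358 and 0.371 CPM in AT-3, against 25.7, 25.3 and 24.5 CPM in E0771 (-5.98 ± 0.18). Itgb4, the β subunit of the hemidesmosome integrin, measured 1.18, 0.864 and 0.953 CPM in AT-3, against 11.8, 9.43 and 9.29 CPM in E0771 (-3.35 ± 0.19). Fermt3, the blood-cell kindlin, was low in both lines, with 0.347, 0.147 and 0.421 CPM in AT-3, against 1.67, 1.16 and 1.37 CPM in E0771. In each of the 4 genes every AT-3 library lay below every E0771 library. These genes were picked for the lowest log2 differences among called members, so that separation is no further support. More abundant members that were higher in AT-3 were Itgb5 (log2 difference 2.97), Itgav (2.28), Itga7 (3.85), Itga3 (1.41) and Zyx (1.68), while Itga6 (-1.29), Tln2 (-1.08) and Tns1 (-1.75) were lower. Itga1, Itgb3, Tns2, Ptk2, Itga4 and Itgb6 were the 6 that did not pass.

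With wild-type MRTFA most adaptors were higher in both lines, while integrins were found in both directions, in AT-3 near the shares of all genes. In AT-3, wild type against empty vector, 26 members were higher and 10 lower by edgeR's quasi-likelihood test, and 8 did not pass; 36.4% of all genes were higher and 32.2% lower. The members' median log2 fold change was 0.57, that of all genes 0.07. In E0771, 24 members were higher, 4 lower and 16 not past the threshold, with 11.2% of all genes higher and 13.3% lower, and medians of 0.47 for the members and -0.05 for all genes. Of the 26 members higher in AT-3 and the 24 higher in E0771, 20 were the same genes; higher in both lines were 9.38% of all genes. Of the 10 lower in AT-3 and the 4 lower in E0771, 3 were shared (Itga3, Itgb5 and Pxn), and 9.74% of all genes were lower in both. The 19 integrins gave 6 higher and 7 lower in AT-3 and 5 higher and 3 lower in E0771. Both AT-3 counts of integrins, and the 3 lower in E0771, were near the background of all genes. The 25 tested adaptors gave 20 higher and 3 lower in AT-3 and 19 higher and 1 lower in E0771. Wild-type and empty vector libraries of E0771 with the same number deviated together, and a fit of these 6 libraries with the replicate number as a block gave 27 members higher and 6 lower. The block brought past the threshold Itgav (0.17 ± 0.03), Itga7 (0.17 ± 0.07) and Tln2 (0.07 ± 0.03) as higher and Itgb7 (-0.68 ± 0.04) and Tns2 (-0.27 ± 0.03) as lower. A block over all libraries gave 25 and 6, adding Itgb6 as higher and Itgb7 and Itgb8 as lower, and neither block lost a call in this comparison. In E0771 Itgb8 was at 0 CPM in every wild-type library and at 0, 0.0842 and 0 CPM with empty vector. Its only counts there came from replicate 2, the library of highest carry-over. Itgb6 measured 0.126, 0 and 0.119 CPM with wild type, against 0 in every empty vector library. Both calls rest on few counts.

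**Figure D2:**
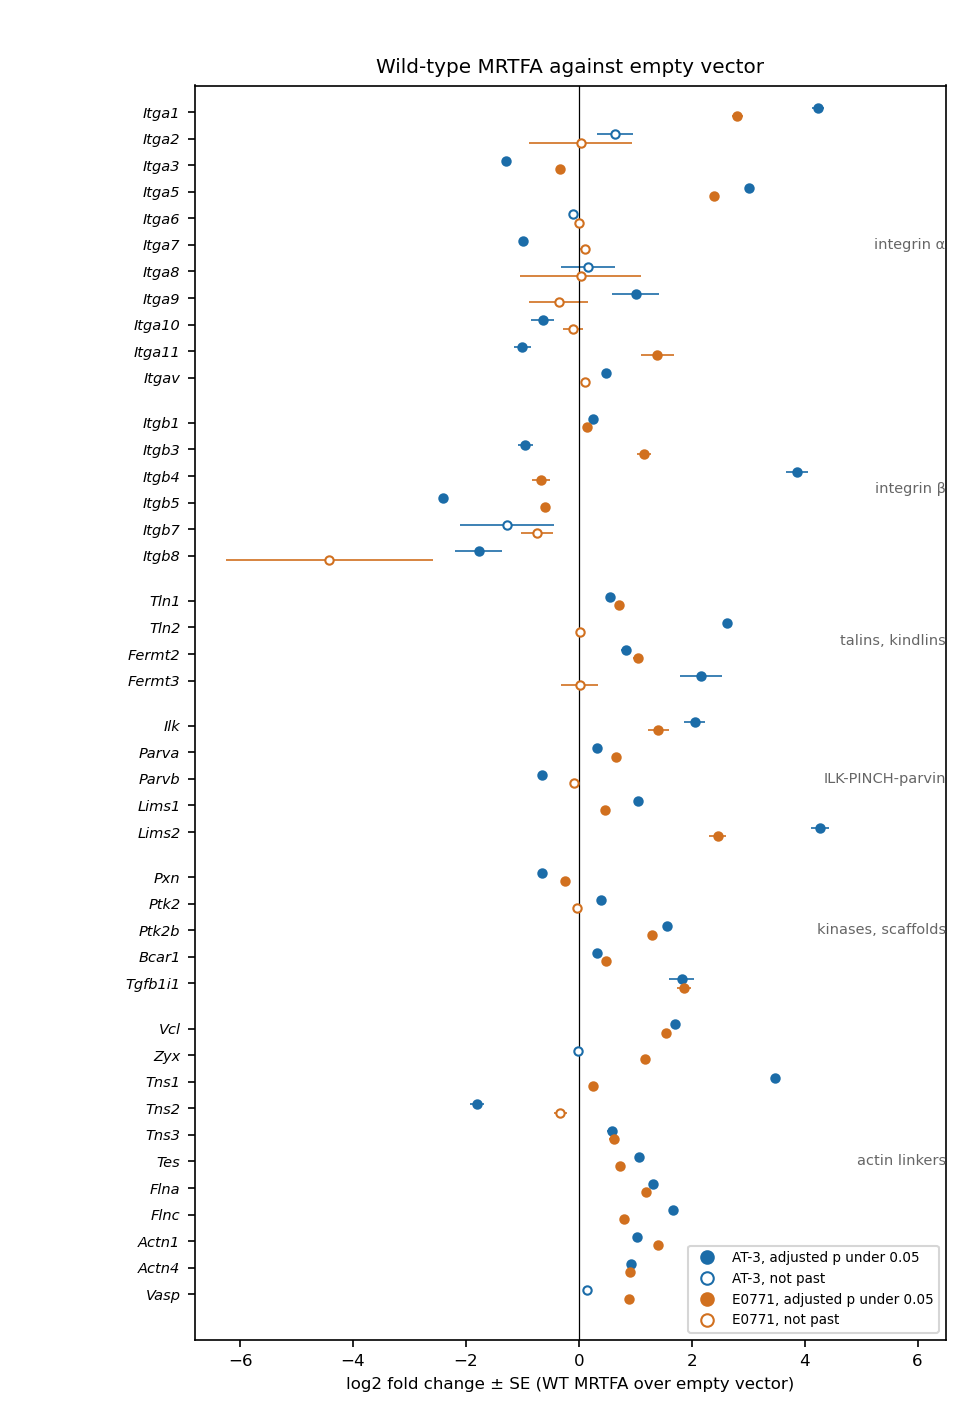
Log2 fold change ± SE of wild-type MRTFA over empty vector for 42 members, grouped by role, in AT-3 (blue) and E0771 (orange); filled points passed an adjusted p of 0.05. The 2 members at or near 0 in most libraries, Itga4 and Itgb6, and the untested Fermt1 are not drawn. Itga1, Itga5 and Lims2 lie far to the right in both lines, while Itgb4, Itga11 and Itgb3 lie on opposite sides in the lines.

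Among the α subunits, Itga5 and Itga1 stood out. Itga5, whose product binds fibronectin, reached 1532, 1571 and 1546 CPM with wild type in AT-3, against 196, 189 and 192 CPM with empty vector. In E0771 it reached 605, 555 and 545 CPM with wild type, against 105, 108 and 111 CPM with empty vector. The log2 fold changes were 3.01 ± 0.05 in AT-3 (8.07-fold; adjusted p = 2.52e-20, edgeR's quasi-likelihood test) and 2.39 ± 0.05 in E0771 (5.26-fold; 4.22e-18), and all 3 wild-type libraries of each line lay above all 3 controls. Itga1, a collagen and laminin receptor subunit, reached 500.1, 458 and 425 CPM with wild type in AT-3, against 25.2, 25.8 and 22.4 CPM with empty vector. In E0771 it reached 180.1, 175 and 159.7 CPM with wild type, against 21.7, 25.2 and 26.6 CPM with empty vector. These were rises of 4.24 ± 0.10 and 2.81 ± 0.10 on the log2 scale, and the level with empty vector was 24.5 CPM on average in both lines. Its neighbour Itga2, at chr13:114833081-114932100 beside Itga1 at chr13:114953096-115101964 on the same strand, did not pass in either line (adjusted p = 0.0811 in AT-3).

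Itga3, a laminin receptor subunit, fell in both lines. It measured 113, 113 and 107 CPM with wild type in AT-3, against 272, 268 and 273 CPM with empty vector, and 78.8, 83.9 and 79.5 CPM with wild type in E0771, against 101, 100.4 and 104 CPM with empty vector. The log2 fold changes were -1.28 ± 0.04 and -0.34 ± 0.04, without overlap between the groups in either line. Itga7, another laminin receptor subunit, fell by 0.99 in AT-3, to 105 ± 1.17 CPM with wild type, against 208 ± 6.78 CPM with empty vector; in E0771 it averaged 15.5 ± 0.502 and 14.4 ± 1.99 CPM and did not pass without the block. Itgav, the α subunit of vitronectin receptors, rose by 0.48 ± 0.06 in AT-3 and was not past the threshold in E0771 without the block (adjusted p = 0.158). Itga6, a laminin receptor subunit, passed in neither line, at 67.4 ± 4.47 CPM with wild type and 72.4 ± 4.47 CPM with empty vector in AT-3 and 178 ± 4.54 and 177 ± 7.58 CPM in E0771. Of the scarcer α subunits, Itga10 fell in AT-3, Itga9 rose there at no more than 1.05 CPM and lost its call in 9 of the alternative analyses, and Itga4 and Itga8 did not pass in either line.

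Of the 7 β subunits, 2 were higher and 3 lower in AT-3, and 2 higher and 2 lower in E0771. The shares of all genes were 36.4% and 32.2% in AT-3 and 11.2% and 13.3% in E0771. In AT-3 the counts of β subunits were near that background. Itgb5, which pairs with αv in a vitronectin receptor, fell to 90.1, 93.1 and 95.7 CPM with wild type in AT-3, against 467, 494 and 514 CPM with empty vector. In E0771 it measured 42.0, 42.9 and 39.4 CPM with wild type, against 65.2, 65.4 and 58.2 CPM with empty vector. The log2 fold changes were -2.40 ± 0.06 and -0.60 ± 0.06 (adjusted p = 7.87e-18 and 6.64e-08, edgeR's quasi-likelihood test), with no overlap in either line. Itgb1 rose slightly, by 0.24 ± 0.04 in AT-3 and 0.15 ± 0.04 in E0771, at 1533 ± 38.0 CPM with wild type and 1294 ± 31.2 CPM with empty vector in AT-3. Leaving out wild-type replicate 2 or 3 gave 0.10 or 0.14 in AT-3, and the E0771 call was lost without empty vector replicate 1. Itgb8 fell in AT-3 to 0.911, 0.761 and 1.01 CPM with wild type, against the values with empty vector given above, and Itgb6 and Itgb7 passed in neither line without a block.

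**Figure D3:**
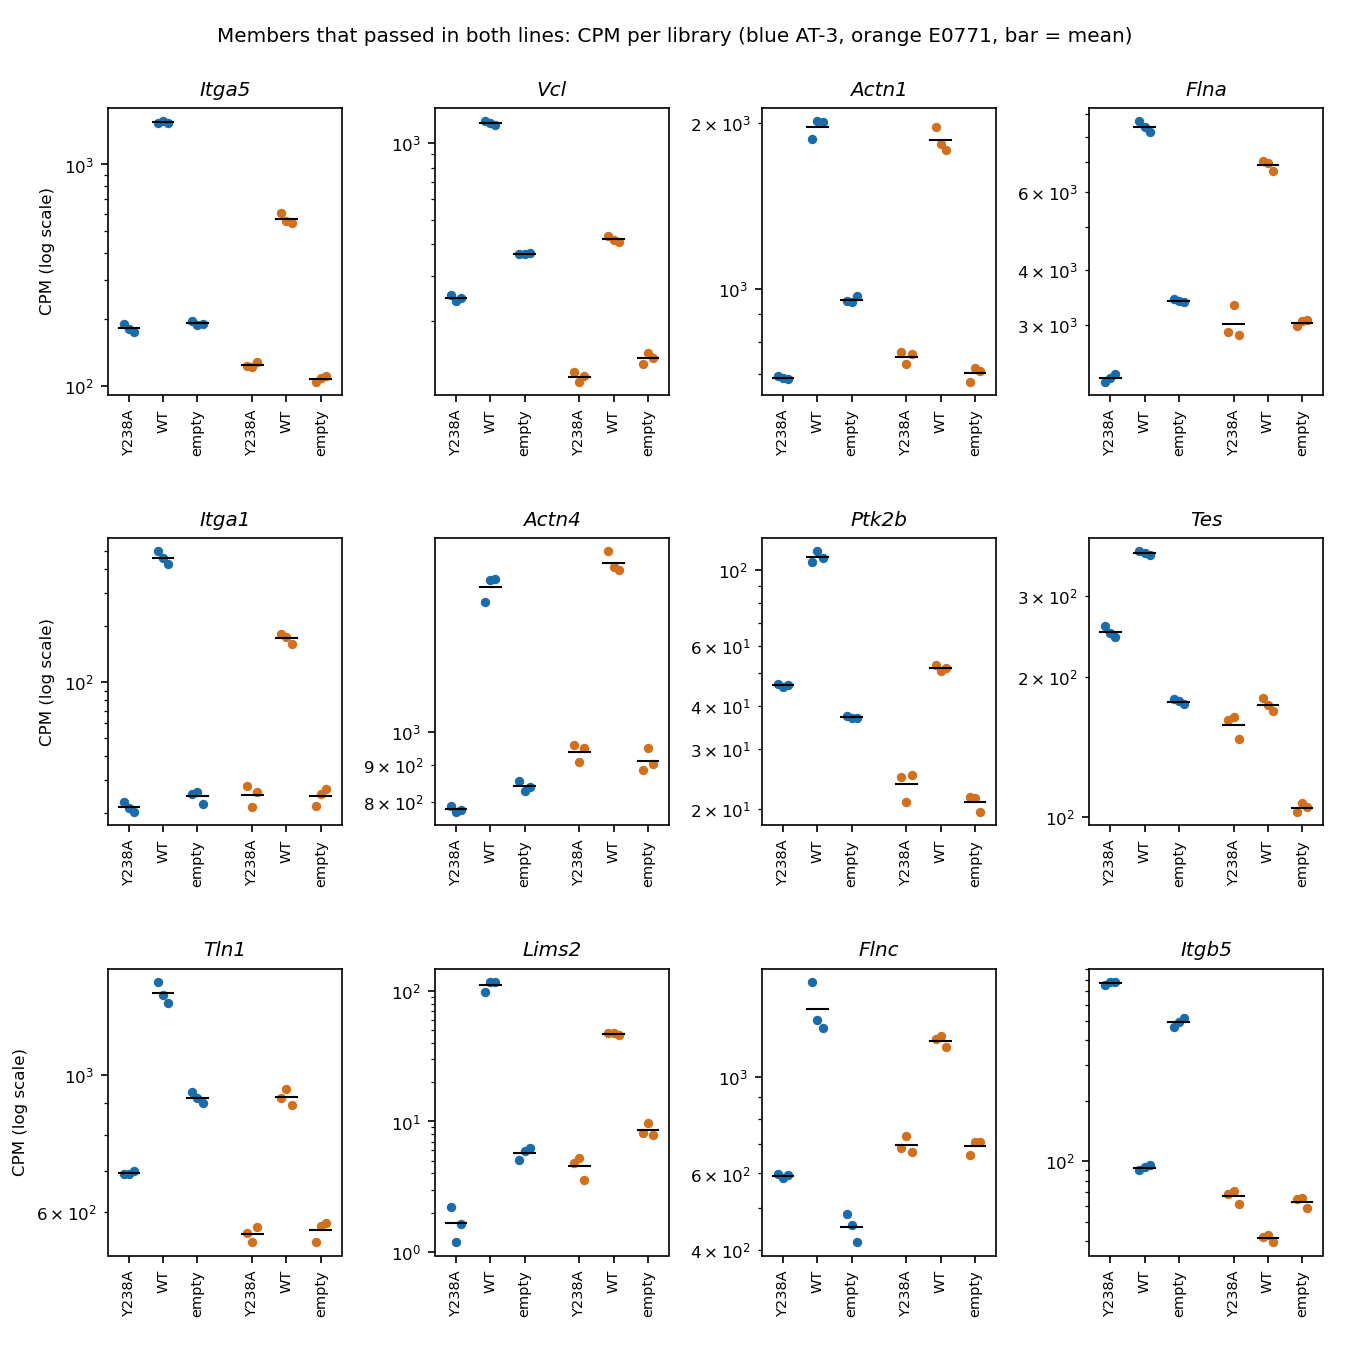
CPM on log axes in each library for the 12 members that passed the test with wild-type MRTFA in both lines with the smallest adjusted p, from left to right Y238A, wild type and empty vector in AT-3 (blue) and E0771 (orange), with bars at the means. For 11 genes the wild-type libraries lie highest in both lines, while Itgb5 is lowest with wild type.

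Most linkers to actin were higher: 8 of 11 were higher and 1 lower (Tns2) in AT-3, where Zyx and Vasp did not pass, and 10 were higher and 0 lower in E0771, where Tns2 did not pass. Over all genes 36.4% were higher and 32.2% lower in AT-3, and 11.2% and 13.3% in E0771. Vcl, whose promoter window is printed above, reached 1217, 1194 and 1170.0 CPM with wild type in AT-3, against 366, 365 and 369 CPM with empty vector, and 431, 416 and 409.9 CPM with wild type in E0771, against 137, 149.8 and 143 CPM with empty vector. Its log2 fold changes were 1.70 ± 0.04 and 1.55 ± 0.04. Flna reached 8678, 8405 and 8209 CPM with wild type in AT-3, against 3431, 3397 and 3371 CPM with empty vector, and 7036, 6961 and 6697 CPM with wild type in E0771, against 2979, 3056 and 3070.5 CPM with empty vector (1.31 ± 0.05 and 1.18 ± 0.05). Flnc, the muscle filamin, reached 1653, 1351 and 1295 CPM with wild type in AT-3, against 484, 458 and 417 CPM with empty vector, and 1223, 1238 and 1168 CPM with wild type in E0771, against 661, 708 and 709 CPM with empty vector (1.66 ± 0.07 and 0.80 ± 0.07). In each of these genes the wild-type libraries lay above all controls of the line.

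The α-actinins crosslink actin filaments where they meet the adhesion. Actn1 reached 1869, 2015 and 2005 CPM with wild type in AT-3, against 950.1, 945 and 972 CPM with empty vector, and 1965, 1831 and 1786 CPM with wild type in E0771, against 679, 719 and 711 CPM with empty vector (1.04 ± 0.04 and 1.40 ± 0.04). Actn4 reached 1518, 1628 and 1631 CPM with wild type in AT-3, against 856, 829.9 and 840.4 CPM with empty vector, and 1784, 1699 and 1679 CPM with wild type in E0771, against 887, 950.5 and 903 CPM with empty vector (0.92 ± 0.04 and 0.91 ± 0.04). Tes, which encodes testin, a partner of zyxin, reached 374, 371 and 367 CPM with wild type in AT-3, against 179, 178 and 175 CPM with empty vector, and 181, 174 and 169 CPM with wild type in E0771, against 102, 107 and 105 CPM with empty vector (1.06 ± 0.04 and 0.74 ± 0.04). In all 3 genes the wild-type libraries lay above every control of the line; the line difference was -0.37 for Actn1, 0.01 for Actn4 and 0.33 for Tes, of which that of Actn4 did not pass. Without AT-3 wild-type replicate 2 the difference of Tes was 0.15 and lost its call, and that of Actn1 was -0.56; without replicate 3 they were 0.16 and -0.56. Of the tensins, which cap actin filaments and bind β subunits, Tns3 rose by 0.58 ± 0.08 in AT-3 and 0.62 ± 0.08 in E0771, whereas Tns2 fell by 1.80 ± 0.12 in AT-3, to 24.3 ± 1.93 CPM with wild type against 84.7 ± 2.48 CPM with empty vector, and did not pass in E0771 without the block (adjusted p = 0.0545).

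The 4 tested talins and kindlins were all higher in AT-3, and 2 were higher and 0 lower in E0771. Among all genes 36.4% were higher in AT-3, and 11.2% were higher and 13.3% lower in E0771. Talins and kindlins switch integrins to their active form. Tln1 reached 1416, 1348 and 1306 CPM with wild type in AT-3, against 939, 919 and 902 CPM with empty vector, and 919, 950.5 and 895 CPM with wild type in E0771, against 536, 571 and 576 CPM with empty vector. Log2 fold changes of 0.56 ± 0.04 and 0.72 ± 0.04 resulted. Fermt2, with the other printed CArG match, reached 339, 381 and 376 CPM with wild type in AT-3, against 209, 202 and 202 CPM with empty vector, and 286, 290.4 and 278 CPM with wild type in E0771, against 130.5, 141 and 141 CPM with empty vector (0.84 ± 0.08 and 1.05 ± 0.08). Fermt3 rose in AT-3 by 2.16 ± 0.37, at 1.36 ± 0.473 CPM with wild type and 0.305 ± 0.141 CPM with empty vector, and averaged 1.41 ± 0.381 and 1.40 ± 0.260 CPM in E0771.

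In the ILK-PINCH-parvin complex, which couples β tails to actin, 4 of 5 genes were higher and 1 lower in AT-3, and 4 were higher and 0 lower in E0771. The shares of all genes were 36.4% higher and 32.2% lower in AT-3, and 11.2% and 13.3% in E0771. Lims2, encoding PINCH-2, reached 98.5, 117 and 118 CPM with wild type in AT-3, against 5.05, 5.96 and 6.21 CPM with empty vector. In E0771 it reached 48.0, 47.4 and 46.3 CPM with wild type, against 8.15, 9.75 and 7.84 CPM with empty vector. At 4.27 ± 0.16 in AT-3 (19.3-fold) and 2.46 ± 0.15 in E0771 (5.51-fold), Lims2 had the highest log2 fold change of any called member in AT-3. Its paralogue Lims1, more abundant with empty vector at 143 ± 4.16 CPM in AT-3, rose by 1.04 ± 0.05 and 0.47 ± 0.05, and Parva (α-parvin) by 0.32 ± 0.06 and 0.66 ± 0.06. Leaving out wild-type replicate 2 or 3 gave 0.18 or 0.21 for Parva in AT-3. Parvb (β-parvin) fell by 0.66 ± 0.07 in AT-3 and did not pass in E0771. Ilk was counted at only 3.26 ± 0.317 CPM with empty vector in AT-3 and rose in both lines, but 89.7% of its exon bases (2461 of 2744) lie under Taf10 and Rrp8 on the opposite strand, so its counts are uncertain where strand was not used. Vcl shares 25.5% of its exon bases with Ap3m1 and the other members at most 8.15%.

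Of the kinases and scaffolds, Ptk2b (the FAK relative PYK2) reached 106, 114 and 109 CPM with wild type in AT-3, against 37.4, 37.0 and 37.1 CPM with empty vector, and 52.7, 50.8 and 51.8 CPM with wild type in E0771, against 21.7, 21.6 and 19.6 CPM with empty vector. This was a log2 fold change of 1.56 ± 0.06 in AT-3 and 1.30 ± 0.06 in E0771. Ptk2, encoding FAK itself, rose by 0.39 ± 0.04 in AT-3 (0.25 without wild-type replicate 2) and did not pass in E0771 (adjusted p = 0.6). Bcar1 (p130Cas) rose by 0.32 ± 0.07 and 0.48 ± 0.07, with 0.17 and 0.20 in AT-3 without wild-type replicate 2 or 3. Tgfb1i1 rose by 1.82 ± 0.22 and 1.86 ± 0.12, in AT-3 at no more than 1.76 CPM. In E0771 it reached 98.8, 83.5 and 92.2 CPM with wild type, and carry-over from E0771 into AT-3 libraries was not measured. Pxn (paxillin) was the adaptor that fell in both lines, by 0.65 ± 0.04 in AT-3 and 0.25 ± 0.04 in E0771, at 112 ± 4.06 CPM with wild type and 175 ± 1.31 CPM with empty vector in AT-3.

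The make-up of the integrin transcript pool, reckoned per kilobase of exon, differed between the constructs. Itga5 supplied 19.4% of the summed α subunit transcripts in AT-3 with Y238A and 72.2% ± 1.44 with wild type, against 23.7% with empty vector. In E0771 its share was 29.5% with Y238A and 68.0% ± 1.38 with wild type, against 30.8% with empty vector. Itga3 went the other way, with 31.5%, 4.47% and 28.9% in AT-3 and 27.4%, 8.35% and 25.1% in E0771 for Y238A, wild type and empty vector in that order. Among the β subunits of AT-3, Itgb1 held 62.2% with Y238A and 92.9% with wild type, against 69.4% with empty vector, and Itgb5 37.6%, 6.47% and 30.3%. The sum over 12 α genes was 190.9 ± 1.84 CPM per kb with Y238A and 435 ± 6.59 with wild type, against 164 ± 1.09 with empty vector in AT-3, and 85.7 ± 1.37, 169 ± 6.46 and 71.1 ± 1.08 in E0771. The sum over the 7 β genes was 577 ± 7.79, 405 ± 8.82 and 457 ± 3.67 in AT-3 and 233 ± 7.05, 242 ± 4.34 and 232 ± 7.22 in E0771. Shares and sums are descriptions with no test, and transcript shares say nothing of protein at the surface.

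**Figure D4:**
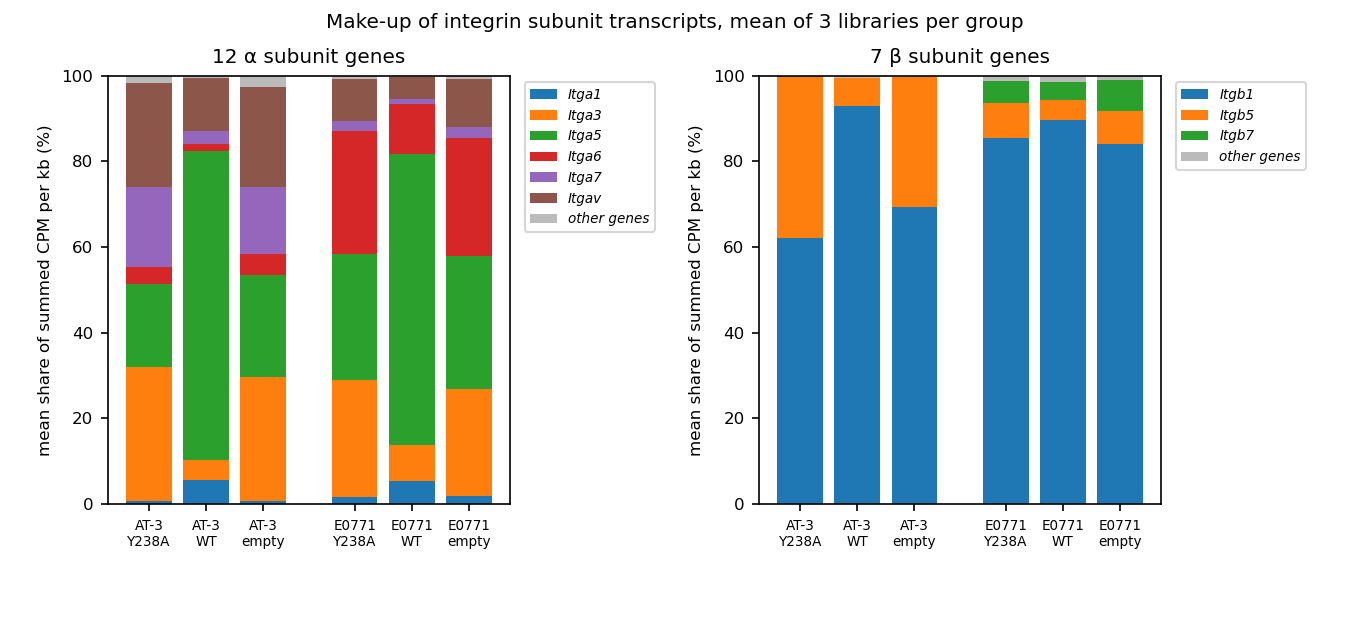
Mean share (%) of each subunit gene in the summed CPM per kb of the 12 α (left) and 7 β (right) genes, 3 libraries per group; genes under 3% in every group are joined as other genes. The Itga5 segment is the largest of the α genes with wild-type MRTFA in both lines, 72.2% in AT-3 and 68.0% in E0771.

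The effect of wild-type MRTFA was then compared between the lines as a difference of log2 fold changes, AT-3 minus E0771. It was higher in AT-3 for 15 members and lower for 13 by edgeR's quasi-likelihood test, with 16 not past the threshold; of all genes 24.0% were higher and 23.3% lower. Scaled by library totals the split was 12 higher and 18 lower; that scaling moves the median fold change of all genes in AT-3 by -0.15. The median difference was 0.05 for the members and 0.08 for all genes. Tln2, the second talin gene, reached 468, 458 and 445 CPM with wild type in AT-3, against 72.5, 75.6 and 75.2 CPM with empty vector, while E0771 had 160.1, 162 and 155 CPM with wild type and 162, 155 and 155 CPM with empty vector. Its difference was 2.60 ± 0.06 (adjusted p = 1.21e-16), with no overlap in AT-3 and overlapping groups in E0771, where it passed with the block of the 6 libraries. Tns1 reached 274, 254 and 251 CPM with wild type in AT-3, against 25.5, 22.9 and 21.4 CPM with empty vector, and 95.9, 92.4 and 89.3 CPM with wild type in E0771, against 75.7, 79.7 and 78.9 CPM with empty vector (difference 3.24 ± 0.11). The small E0771 rise of Tns1, 0.24 ± 0.07, lost its call without empty vector replicate 1, wild-type replicate 1 or wild-type replicate 2, and without the 4 libraries of highest carry-over.

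Several integrins moved in opposite directions in the lines. Itgb4 reached 18.4, 11.9 and 13.3 CPM with wild type in AT-3, against 1.18, 0.864 and 0.953 CPM with empty vector, but measured 6.40, 6.73 and 6.03 CPM with wild type in E0771, against 11.8, 9.43 and 9.29 CPM with empty vector. The log2 fold changes were 3.86 ± 0.20 and -0.67 ± 0.16, a difference of 4.54 ± 0.25 (adjusted p = 1.56e-11). Itga11 was the reverse, at 10.1, 8.66 and 7.05 CPM with wild type in AT-3 and at most 0.464 CPM in every E0771 library, lower than with empty vector in AT-3 (adjusted p = 1.03e-05, edgeR's quasi-likelihood test) and higher in E0771 (1.39 ± 0.29), a difference of -2.38 ± 0.33; the E0771 call was lost when that line was fitted alone. Itgb3, which pairs with αv, fell by 0.95 ± 0.14 in AT-3 and rose by 1.16 ± 0.13 in E0771, to 15.5, 14.9 and 14.9 CPM with wild type against 6.28, 7.59 and 6.45 CPM with empty vector. Itgb5 and Itga3 fell in both lines and further in AT-3, with differences of -1.80 ± 0.08 and -0.95 ± 0.06.

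Zyxin and its partner VASP, which promotes actin polymerisation, were in the opposite position: they rose in E0771, and in AT-3 they did not pass edgeR's quasi-likelihood test as fitted to all libraries. Zyx measured 1331, 1496 and 1449.6 CPM with wild type in AT-3, against 1441, 1438 and 1439 CPM with empty vector, and 1072, 968 and 983 CPM with wild type in E0771, against 451, 461 and 438 CPM with empty vector. Its log2 fold changes were -0.01 ± 0.06 and 1.16 ± 0.06, a difference of -1.18 ± 0.09 (adjusted p = 1.29e-09, edgeR's quasi-likelihood test). Vasp measured 174, 208 and 201 CPM with wild type in AT-3, against 178, 171 and 182 CPM with empty vector, and 461, 433 and 424 CPM with wild type in E0771, against 247, 243 and 222 CPM with empty vector (difference -0.75 ± 0.09). In AT-3 the groups overlapped for both genes, and their calls varied with the processing. Vasp, at 0.14 ± 0.06 (adjusted p = 0.0637), passed as higher in 6 alternatives: both DESeq2 alternatives (0.16 in each), the line fitted alone (0.14), and without AT-3 wild-type replicate 1 (0.21), E0771 Y238A replicate 2 or E0771 empty vector replicate 3 (0.14 in each). It lay below 0 in 3, with library totals and without AT-3 wild-type replicate 2 or 3. Zyx passed as lower in 2, at -0.17 both with library totals and without AT-3 wild-type replicate 2, and lay above 0 in 3, both DESeq2 alternatives and without AT-3 wild-type replicate 1. For Vcl the line difference of 0.15 ± 0.06 passed (adjusted p = 0.0393), but it lost its call in 13 alternatives and turned to -0.02 and -0.01 without AT-3 wild-type replicate 2 or 3.

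With Y238A MRTFA members were called in both directions in both lines, with fewer calls in E0771 than in AT-3. In AT-3, Y238A against empty vector, 13 members were higher and 16 lower by edgeR's quasi-likelihood test, with 15 not past the threshold; 21.4% of all genes were higher and 22.2% lower, and the median log2 fold change was -0.10 for the members and 0.01 for all genes. In E0771, 7 were higher, 5 lower and 32 not past the threshold, with 5.41% of all genes higher and 6.64% lower; the median was 0.01 for the members and -0.01 for all genes. Without the 4 libraries of highest carry-over the E0771 counts were 4 higher and 3 lower. The higher count was also 4 without Y238A replicate 1, empty vector replicate 1 or empty vector replicate 3.

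**Figure D5:**
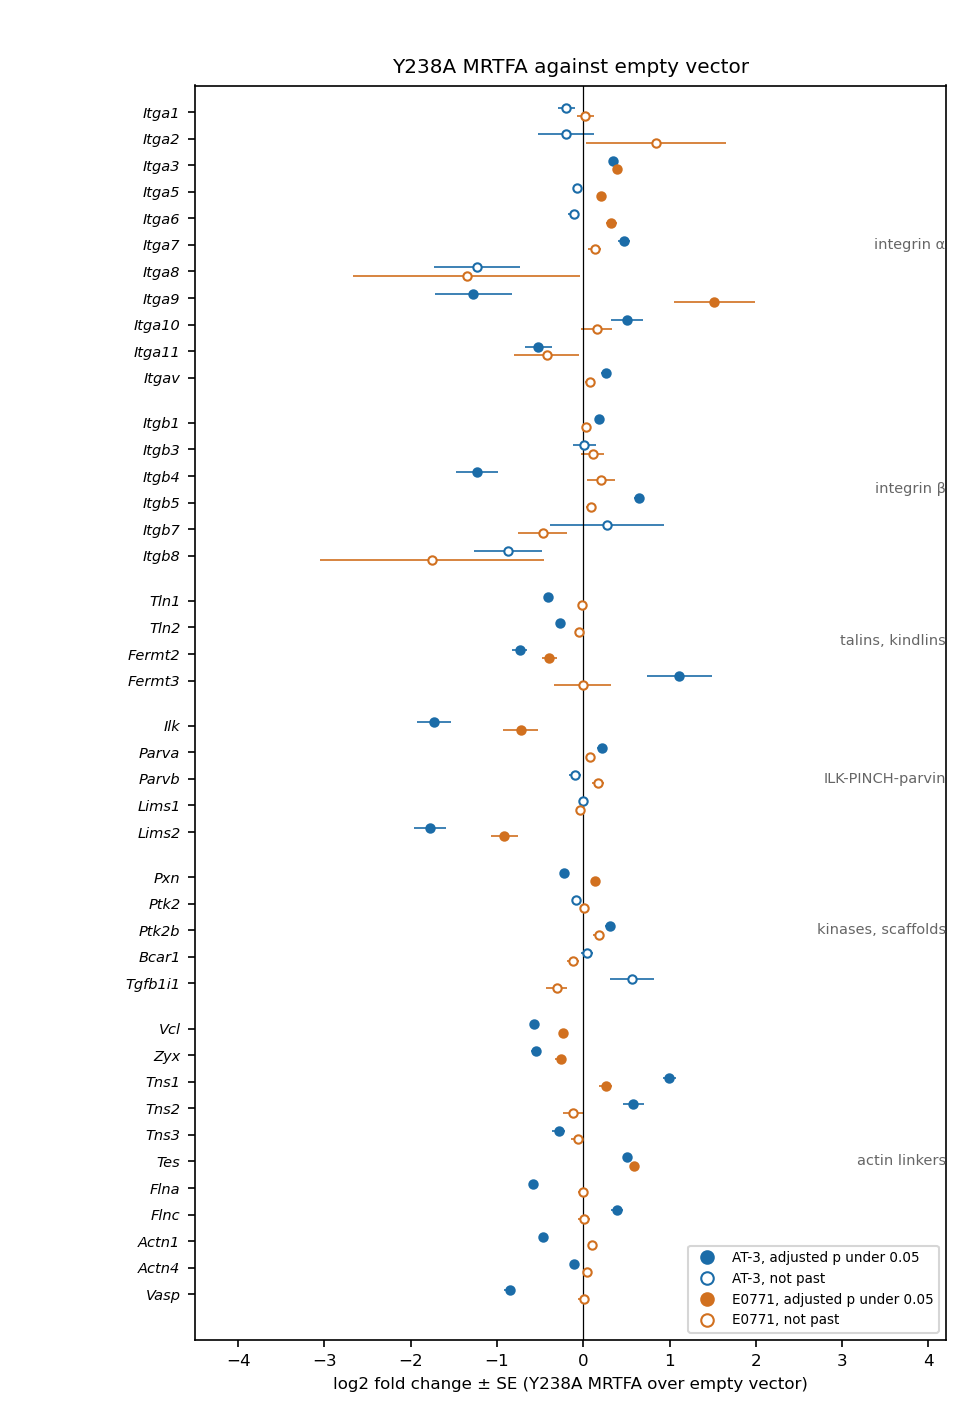
Log2 fold change ± SE of Y238A MRTFA over empty vector for 42 members, grouped by role, in AT-3 (blue) and E0771 (orange); filled points passed an adjusted p of 0.05. Itga4, Itgb6 and Fermt1 are not drawn. Most E0771 points lie near 0, and Vcl, Lims2, Fermt2, Ilk and Zyx are filled left of 0 in both lines.

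Vcl fell with the mutant. It measured 254, 239.5 and 247 CPM with Y238A in AT-3, against 366, 365 and 369 CPM with empty vector, and 127, 116 and 122 CPM with Y238A in E0771, against 137, 149.8 and 143 CPM with empty vector. The log2 fold changes were -0.57 ± 0.04 and -0.24 ± 0.04 (adjusted p = 9.31e-10 and 0.000787, edgeR's quasi-likelihood test), with no overlap in either line. Lims2 fell to 2.20, 1.18 and 1.64 CPM with Y238A in AT-3, against 5.05, 5.96 and 6.21 CPM with empty vector, and to 4.81, 5.22 and 3.58 CPM with Y238A in E0771, against 8.15, 9.75 and 7.84 CPM with empty vector (-1.78 ± 0.18 and -0.91 ± 0.16). Fermt2 (-0.74 ± 0.08 and -0.39 ± 0.08), Ilk (-1.73 ± 0.20 and -0.72 ± 0.20) and Zyx (-0.55 ± 0.06 and -0.26 ± 0.06) completed the 5 members that were lower in both lines, of 16 in AT-3 and 5 in E0771. Of all genes 22.2% were lower in AT-3 and 6.64% in E0771. The share of all genes lower in both was not counted, so this overlap has no background beside it. In E0771 the Ilk and Zyx calls were lost without the 4 libraries of highest carry-over, that of Ilk also without Y238A replicate 1 or empty vector replicate 3, and that of Zyx when the line was fitted alone. The E0771 value of Fermt2 was -0.26 without Y238A replicate 2. As given above, 89.7% of the exon bases of Ilk lie under genes on the opposite strand, so its counts are uncertain where strand was not used.

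Testin rose with the mutant in both lines. Tes measured 258, 249.7 and 245 CPM with Y238A in AT-3, against 179, 178 and 175 CPM with empty vector, and 162, 164 and 147 CPM with Y238A in E0771, against 102, 107 and 105 CPM with empty vector. These were rises of 0.50 ± 0.04 and 0.59 ± 0.04, without overlap. Itga3 also rose, to 355, 340.0 and 333 CPM with Y238A in AT-3, against 272, 268 and 273 CPM with empty vector, and to 132, 131 and 138 CPM with Y238A in E0771, against 101, 100.4 and 104 CPM with empty vector (0.34 ± 0.04 and 0.39 ± 0.04). Tns1 was the third of the 3 members higher in both lines, of 13 in AT-3 and 7 in E0771, at 47.9, 45.5 and 45.7 CPM with Y238A in AT-3, against 25.5, 22.9 and 21.4 CPM with empty vector, and 98.6, 79.4 and 102 CPM with Y238A in E0771, against 75.7, 79.7 and 78.9 CPM with empty vector. Its E0771 groups overlapped, and the call there was lost in 6 of the alternative analyses. Of all genes 21.4% were higher in AT-3 and 5.41% in E0771, and the share higher in both was not counted.

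Other changes with the mutant were found in AT-3. Flna measured 2229, 2269 and 2318 CPM with Y238A in AT-3, against 3431, 3397 and 3371 CPM with empty vector, a fall of 0.58 ± 0.05 on the log2 scale. Vasp measured 95.8, 97.3 and 101 CPM with Y238A in AT-3, against 178, 171 and 182 CPM with empty vector, and Itgb5 measured 752, 781 and 778 CPM with Y238A, against 467, 494 and 514 CPM with empty vector (-0.85 ± 0.06 and 0.65 ± 0.06). In E0771, Flna, Vasp and Itgb5 were not past the threshold with the mutant. There Itga6 rose to 208, 246 and 212 CPM with Y238A, against 184, 169 and 179 CPM with empty vector, and Itga5 to 123, 122 and 128 CPM with Y238A, against 105, 108 and 111 CPM with empty vector (0.32 ± 0.06 and 0.20 ± 0.04). Itga9 and Pxn were lower with Y238A in AT-3 and higher in E0771, but the E0771 calls were lost in 13 and 10 alternatives. The AT-3 calls of Actn4 and Itga10 were lost in 17 and 10. In AT-3 Itga5 was at 183 ± 7.91 CPM with Y238A and 192 ± 3.57 CPM with empty vector and did not pass, and neither did Itga1 in either line.

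The difference between the lines in the effect of Y238A was itself tested. It was higher in AT-3 for 6 members and lower for 16 by edgeR's quasi-likelihood test, with 22 not past the threshold, against 13.6% of all genes higher and 12.2% lower; the median was -0.10 for the members and 0.03 for all genes. Vasp (-0.86 ± 0.09), Actn1 (-0.57 ± 0.06), Flna (-0.57 ± 0.07) and Tln1 (-0.38 ± 0.06) were lower in AT-3 than in E0771 in their response. Actn1 measured 696, 688 and 687 CPM with Y238A in AT-3, against 950.1, 945 and 972 CPM with empty vector, and 770.2, 731 and 761 CPM with Y238A in E0771, against 679, 719 and 711 CPM with empty vector. Tln1 measured 693, 693 and 699.9 CPM with Y238A in AT-3, against 939, 919 and 902 CPM with empty vector, and 556, 536 and 568 CPM with Y238A in E0771, against 536, 571 and 576 CPM with empty vector. Both genes were lower in every AT-3 mutant library than in every AT-3 control, and both did not pass in E0771. Itgb5 (0.56 ± 0.08) and Tns1 (0.74 ± 0.11) were the members with the smallest adjusted p among those higher in AT-3.

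Set directly against wild type, the SRF-binding mutant gave lower levels of most members. In AT-3, Y238A against wild type, 28 were lower and 9 higher by edgeR's quasi-likelihood test, with 7 not past the threshold; 34.8% of all genes were lower and 31.4% higher, with medians of -0.91 for the members and -0.05 for all genes. In E0771, 23 were lower and 7 higher, with 14 not past the threshold; 12.7% of all genes were lower and 13.0% higher, with medians of -0.59 for the members and 0.02 for all genes. By role, 21 of 25 adaptors were lower and 3 higher in AT-3, and 18 lower and 2 higher in E0771. The integrins were split, with 7 lower and 6 higher of 19 in AT-3 and 5 lower and 5 higher in E0771. Their AT-3 counts were near the shares of all genes.

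Among the wide gaps were Lims2 (-6.05 ± 0.18 in AT-3 and -3.38 ± 0.16 in E0771), Itga1 (-4.43 ± 0.11 and -2.78 ± 0.10), Itga5 (-3.08 ± 0.05 and -2.19 ± 0.05) and Vcl (-2.28 ± 0.04 and -1.79 ± 0.04). Itga5 measured 191, 181 and 176 CPM with Y238A in AT-3, against 1532, 1571 and 1546 CPM with wild type. Itga1 measured 22.8, 21.2 and 20.1 CPM with Y238A in AT-3, against 500.1, 458 and 425 CPM with wild type, and 27.7, 21.4 and 25.6 CPM with Y238A in E0771, against 180.1, 175 and 159.7 CPM with wild type. For both genes the mutant libraries lay far below all wild-type libraries. Higher with Y238A than with wild type in both lines were Itga3 (1.62 ± 0.04 and 0.73 ± 0.04), Itgb5 (3.05 ± 0.06 and 0.69 ± 0.06), Pxn (0.43 ± 0.04 and 0.38 ± 0.04) and Parvb (0.56 ± 0.07 and 0.26 ± 0.06). Tes was at -0.56 ± 0.04 in AT-3 and -0.15 ± 0.04 in E0771, and the E0771 call was lost without wild-type replicate 1, without Y238A replicate 3, with library totals, and when the 4 carry-over libraries were left out. The mutant and its amount cannot be told apart here, since the construct's transcript was less abundant with Y238A than with wild type in both lines.

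The wider adhesion network was read from lists of genes outside the set. Of 42 tested adaptors and kinases beyond the members, 21 were higher and 13 lower with wild type in AT-3 (median 0.40) and 15 higher and 6 lower in E0771 (median 0.12). Over all genes 36.4% were higher and 32.2% lower with wild type in AT-3 and 11.2% and 13.3% in E0771, so the lower counts of this list are near the background. Kank1, whose product binds talin at the rim of adhesions, rose in AT-3 by 5.64 ± 0.07 and in E0771 by 2.31 ± 0.06, and so did Palld (palladin), by 2.39 ± 0.08 and 3.06 ± 0.08. Sorbs3 (vinexin) fell by 1.82 ± 0.07 in AT-3. With Y238A the same list had 7 higher and 16 lower in AT-3, where 21.4% of all genes were higher and 22.2% lower, and 4 higher and 3 lower in E0771, where 5.41% were higher and 6.64% lower. Of 8 integrin subunits outside the set, 6 were tested, with 3 higher and 1 lower for wild type in AT-3 and 1 higher and 1 lower in E0771. Itga2b, the platelet α subunit, rose to 32.4 ± 2.69 CPM with wild type in AT-3, against 1.26 ± 0.0311 CPM with empty vector, and to 9.09 ± 1.47 CPM with wild type in E0771, against 2.91 ± 0.338 CPM with empty vector.

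Integrin ligands were read the same way. Of 32 tested, 11 were higher and 10 lower with wild type in AT-3 (median 0.04) and 11 higher and 6 lower in E0771 (median -0.06). With 36.4% of all genes higher and 32.2% lower in AT-3, the AT-3 counts of ligands are near the background; in E0771 the shares over all genes were 11.2% and 13.3%. Lamb1, a laminin chain, rose by 1.01 ± 0.07 and 1.86 ± 0.08, while Spp1 (osteopontin, a ligand of αv integrins) fell by 1.89 ± 0.07 and 0.50 ± 0.07. Emilin1 fell by 2.92 ± 0.15 and Tgfb1 by 1.29 ± 0.06 in AT-3. With Y238A 5 ligands were higher and 15 lower in AT-3 (21.4% and 22.2% of all genes), and 5 higher and 2 lower in E0771 (5.41% and 6.64%). Of 14 membrane proteins that associate with integrins, 7 were higher and 4 lower with wild type in AT-3 (median 0.40) and 5 higher and 6 lower in E0771 (median 0.02); against the same shares of all genes, the 4 lower in AT-3 are near the background. Cav1 (caveolin-1) rose by 1.45 ± 0.07 and 0.79 ± 0.07, the syndecan Sdc1 fell by 1.03 ± 0.05 and 0.45 ± 0.05, and in AT-3 the tetraspanin Cd82 fell by 1.97 ± 0.07 while Cd47 rose by 1.14 ± 0.04. With Y238A 7 of the 14 were higher and 2 lower in AT-3, and 2 higher and 0 lower in E0771.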

How the data were processed

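Per the labels' protocols, RNA came from a Qiagen RNeasy extraction and mRNA libraries from NuGen's Universal Plus kit. STAR, featureCounts and GRCm38 are named in the submitters' processing notes; versions, the annotation release and strandedness are not given in the sources used here. The values deposited by the authors are raw counts per gene for 18 libraries, with no normalization. From these, edgeR 4.0.16 (R 4.3.3, limma 3.58.1) fitted 6 group means to all libraries after filterByExpr (minimum count 10, minimum total 15) and TMM scaling, with the robust quasi-likelihood test, 12 residual degrees of freedom and Benjamini-Hochberg adjustment over 17841 genes at 0.05. CPM uses TMM-scaled totals; exon length and coordinates come from GENCODE M21 on GRCm38, and promoters from RefSeq GRCm38.p6. The SE of a log2 fold change is its size divided by the square root of F. Errors of levels are SD over 3 libraries. The fit was run on simulated counts, drawn independently for each library from the fit's own estimates of spread. Such counts hold no shared deviations of same-numbered libraries, so they cannot test the fit for those described below. Per-library values are given for members named by adjusted p rank, or between the lines with empty vector by the size of the log2 difference among called members. Where groups of members so picked did not overlap, this is no separate support for a call. Members, lists and these rules were chosen with earlier results of these data known. A gene of those lists, included in their counts, is not reported singly here. Deviations from the group means (9125 genes) of same-numbered E0771 wild-type and empty vector libraries correlated at 0.54, 0.68 and 0.59. The labels do not say what a number shares, and both libraries numbered 2 held carry-over. A block fit that took these 6 libraries as pairs was added after the data were seen. E0771 values given without mention of a block come from the main fit, which holds no replicate number. Alternatives were DESeq2 1.42.0, other scalings and filters, each line alone, a replicate block, a fold limit, and libraries left out. Plots used matplotlib 3.10.9.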

Additional observations from a re-analysis of the deposited data

Results flagged for a closer look

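Listed here are 14 line differences in the response to a construct (AT-3 minus E0771, log2 scale, edgeR's quasi-likelihood test). Each was picked for passing and for being among the 6 of smallest adjusted p or called in opposite directions in the lines. Their number therefore follows from that rule. Of the 44 members tested, 15 were higher and 13 lower with wild type, against 24.0% and 23.3% of all genes. The counts with Y238A were 6 and 16, against 13.6% and 12.2% of all genes. With wild-type MRTFA the response was higher in AT-3 for Itgb4 (4.54), Tns1 (3.24) and Tln2 (2.60). It was lower in AT-3 for Itga11 (-2.38), Itgb3 (-2.10), Itgb5 (-1.80), Zyx (-1.18) and Itga3 (-0.95). With Y238A MRTFA it was higher in AT-3 for Tns1 (0.74) and Itgb5 (0.56), and lower for Vasp (-0.86), Actn1 (-0.57), Flna (-0.57) and Tln1 (-0.38). Itgb5 and Tns1 were named with both constructs. Among the genes of this paragraph both differences also passed for Itgb4, Tln2, Zyx, Vasp, Actn1 and Tln1. The wild-type difference of Tln1 lost its call in 10 alternatives, and the Y238A differences of Zyx and Tln2 lost theirs in 4 and 1. Itgb5 had -1.80 with wild type and 0.56 with Y238A, and these comparisons share the empty vector libraries. The construct's transcript was more abundant in AT-3 than in E0771, at 5434 and 761 CPM with wild type and 2104 and 319.6 CPM with Y238A, and its part in the differences was not tested.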

How the results depend on the processing

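Under a limit of 1 on the size of the log2 fold change, members higher and lower and all genes called were 17, 4 and 5850 for wild type in AT-3, 1, 4 and 1844 for Y238A in AT-3, 13, 0 and 1085 for wild type in E0771, and 1, 0 and 358 for Y238A in E0771. For Y238A against wild type, 5 members were higher and 5590 genes called in AT-3, and 1 member was higher, 13 lower and 1281 genes called in E0771. The line differences gave 6, 6 and 3267 for wild type and 0, 3 and 1011 for Y238A, and AT-3 against E0771 with empty vector 13, 8 and 6910. Fewer calls follow from the limit itself. Without the 4 libraries of highest carry-over, 2762 genes were called for wild type in E0771, and 4 members higher, 3 lower and 843 genes for Y238A in E0771; fewer libraries enter that fit. Leaving out 1 library at a time gave 4 to 10 members higher and 1251 to 2619 genes called for Y238A in E0771, the lowest gene count without empty vector replicate 2. Small values turned sign. With wild type in AT-3, Zyx was 0.013 by DESeq2 and 0.013 with DESeq2 size factors, against -0.01 as reported, and lay between -0.17 and 0.034 with 1 library left out. Vasp was -0.017 with library totals and lay between -0.037 and 0.21 with 1 library left out. With wild type in E0771, Tln2 was -0.0032 with library totals and -0.0077 without the carry-over libraries, and lay between -0.0019 and 0.070 with 1 library left out. The Vcl line difference lay between -0.023 and 0.19 with 1 library left out. The cause was not tested. Library totals shifted the median of all genes by -0.15 for wild type in AT-3, and leaving out AT-3 wild-type replicate 2 or 3 by -0.12. Deviations of same-numbered libraries correlated above 0.1 in every pair for wild type and empty vector of E0771 alone among the comparisons within a line; over all 18 pairs within a line the range was -0.35 to 0.68 (median 0.096), so elsewhere the numbers were not taken as pairs. With the replicate block the members higher and lower were 25 and 10 for wild type in AT-3, 13 and 17 for Y238A in AT-3, 25 and 6 for wild type in E0771, and 6 and 6 for Y238A in E0771; the block fit of E0771 wild type and empty vector alone gave 27 and 6, with 6262 genes called. Members near 0 CPM rest on few counts even at 81265466 counts or more a library (fragments or mates).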
